A study of Homo sapiens with 17 samples.

Results

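Vitamin A is carried into cells as retinol, oxidized to retinal and then, by aldehyde dehydrogenases, to retinoic acid. Retinoic acid enters the nucleus on binding proteins, activates the retinoic acid receptors (RARs) and is cleared by CYP26 enzymes. In squamous epithelium this pathway is known for its hold on keratinization, and some aldehyde dehydrogenases also detoxify aldehydes from lipids and tobacco smoke.

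Expression of 9 genes of this pathway was followed by RNA sequencing in 17 libraries of squamous cancer cell lines. The genes were selected on their function and because one of them, ALDH1A3, rose when the e1 enhancer was activated, and all 9 were found among the 57820 genes of each library. KYSE140, an esophageal squamous cancer line, gave 13 libraries, and SKMES1, a lung squamous cancer line, gave 4. The element e1 is an enhancer of SOX2, which codes for a transcription factor of squamous and stem cells.

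In KYSE140, e1 was repressed by CRISPR interference (CRISPRi), in which an inactive Cas9 (dCas9) fused to repressor domains is directed by a guide RNA. The 2 CRISPRi e1 libraries carried e1 guides 1 and 2, and the 2 CRISPRi control libraries carried guides without a site in the genome, in the same dCas9 cells. SOX2 was cut by active Cas9 with guides 2, 3 and 4 in 3 SOX2 knockout libraries, against 2 knockout control libraries with guides to AAVS1 and to a site on chromosome 2. These were infected and drug-selected pools of cells. A further 2 libraries each came from KYSE140 cultures A and B given 0.5 µM ARV-771, a degrader of BET bromodomain proteins, or DMSO, for 6 h. In SKMES1, e1 was activated by CRISPR activation (CRISPRa) with dCas9-VP64 and e1 guides 1 and 3, in 2 libraries against 2 CRISPRa control libraries.

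The total expected count of a library lay between 7260730 and 15781463, so that 3 counts stood at 0.19 to 0.413 CPM (the expected count scaled to the library total). SOX2, at 365 to 379 TPM (a share of transcripts corrected for transcript length) in the CRISPRi controls, stood at 120 to 128 TPM with e1 guides. It went from 397 to 428 TPM in the knockout controls to 103, 125 and 221 TPM with SOX2 guides 2, 3 and 4. The level went from 223 to 236 TPM in DMSO to 9.8 and 10.5 TPM with ARV-771, and from 1.53 and 1.68 TPM to 224 and 316 TPM on e1 activation. Squamous markers were present in KYSE140, with KRT5 at 2398 to 8392 TPM, and most were low in SKMES1, where KRT5 lay at 0.05 to 1.26 TPM and DSG3 at 0 to 0.1 TPM but PKP1 at 72 to 141 TPM, against 114 to 325 TPM in KYSE140. The SKMES1 CRISPRa control library 2 stood apart in KRT14, which had 1404 counts there and 0 to 5 in the other SKMES1 libraries. The blood markers PTPRC and CD3E did not exceed 0.55 TPM in any library, and the endothelial markers VWF and CDH5 summed to at most 0.82 TPM. The simple-epithelium keratins KRT7, KRT8, KRT18 and KRT19 summed to 1166 to 2818 TPM. Of these, KRT7 lay at 0.85 to 31.4 TPM in KYSE140 and at 1062 to 1524 TPM in SKMES1. The ranges of KRT8, KRT18 and KRT19 overlapped between the lines.

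The promoters of 3 members show how the genes differ in their upstream sequence. RARB is the textbook retinoic acid-induced gene. The oxidizing enzymes ALDH1A1 and ALDH1A3 ran opposite to each other between the lines, on e1 repression and on SOX2 knockout, but not with ARV-771 by TMM. Each sequence is the 250 bases before a RefSeq transcript start (GRCh38.p14), read on the gene's strand. A search on both strands looked for receptor half-sites, that is AGGTCA, or the variant spelled AGTTCA, or the same with another first letter, spelled GGGTCA, or the last variant, spelled GGTTCA. It also looked for such a half-site repeated in the same orientation after 5 bases, and for the SOX cores ACAAAG or, in its other form, ACAATG. Capitals mark the repeated half-sites in RARB and the SOX core, on the reverse strand, in ALDH1A1. The ALDH1A3 window holds neither.
RARB, chr3:25428013-25428262, plus strand: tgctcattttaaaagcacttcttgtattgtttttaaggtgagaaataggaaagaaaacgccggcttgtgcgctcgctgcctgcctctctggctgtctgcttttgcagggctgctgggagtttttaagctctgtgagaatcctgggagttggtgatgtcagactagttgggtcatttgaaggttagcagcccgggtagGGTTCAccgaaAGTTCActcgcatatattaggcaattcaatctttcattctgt
ALDH1A1, chr9:72953054-72953303, minus strand: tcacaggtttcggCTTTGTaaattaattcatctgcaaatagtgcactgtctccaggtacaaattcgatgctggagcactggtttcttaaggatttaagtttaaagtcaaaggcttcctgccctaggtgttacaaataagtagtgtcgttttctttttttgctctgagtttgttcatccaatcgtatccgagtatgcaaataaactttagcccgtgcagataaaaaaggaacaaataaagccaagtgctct
ALDH1A3, chr15:100879581-100879830, plus strand: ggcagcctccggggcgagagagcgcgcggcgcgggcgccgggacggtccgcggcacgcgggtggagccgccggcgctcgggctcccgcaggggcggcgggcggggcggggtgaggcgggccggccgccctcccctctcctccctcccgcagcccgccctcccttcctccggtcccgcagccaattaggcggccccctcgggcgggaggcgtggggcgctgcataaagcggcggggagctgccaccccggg

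In RARB the repeat began 53 bases before the start, in 1 of the 4 RARB windows. Such a repeat is present in 26 of 35116 windows of this length (0.074%) and in no other member's window. The table gave 17 windows for 8 members. A half-site was found in 8 of the 17 windows, from 4 members (DHRS3, CRABP2, RARB and STRA6), against 33.8% of all windows. A SOX core was found in 7 of the 17 windows, from 4 members (ALDH1A1, CYP26B1, RARB and STRA6), against 21.2% of all windows. The matches describe letters and were not tested as binding sites.

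The genes lie on 7 chromosomes (GRCh37). ALDH1A1 spans chr9:75515587-75695358, ALDH1A3 chr15:101417919-101456831 and ALDH3A1 chr17:19641297-19652256. The receptors RARB and RARG span chr3:24729378-25639423 and chr12:53604351-53626764. CRABP2 (chr1:156669398-156675608), DHRS3 (chr1:12627939-12678216), STRA6 (chr15:74471807-74504608) and CYP26B1 (chr2:72356367-72374991) complete the set. ALDH1A3 shares 1715 exon bases with ALDH1A3-AS1 on the opposite strand. The libraries were directional, but the strand setting of the counting is not given in the sources used here. ALDH1A3-AS1 had 12 to 62 counts per library and did not follow ALDH1A3, with 13 and 15 counts on e1 activation against 25 and 30 in the controls.

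The most visible pattern was between the cell lines. On the TPM scale, which allows genes to be compared, RARG (the main RAR of skin) was the highest member in the 6 KYSE140 control libraries at 62.6 to 107 TPM, followed by ALDH1A1 (a retinal dehydrogenase of many stem cell types) at 43.7 to 62.1 TPM. CRABP2, which delivers retinoic acid to the receptors, lay at 25.1 to 30.6 TPM, and RARB at 0.64 to 2.39 TPM. In the 2 SKMES1 control libraries the highest members were ALDH3A1 (an aldehyde dehydrogenase of the cornea and airway) at 144 and 246 TPM, CRABP2 at 141 and 195 TPM and ALDH1A3 (a retinal dehydrogenase) at 101 and 150 TPM.

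The main retinal dehydrogenase transcript thus differed between the lines. ALDH1A1 ranged from 16.4 to 108 CPM over all 13 KYSE140 libraries and from 0 to 1.97 CPM over the 4 SKMES1 libraries. ALDH1A3 ranged from 2.07 to 10.1 CPM in KYSE140 and from 227 to 1404 CPM in SKMES1. ALDH3A1, DHRS3 (which reduces retinal back to retinol) and STRA6 (the retinol uptake receptor) were also higher in all 4 SKMES1 libraries than in all 13 of KYSE140. RARG was lower, at 30.4 to 36.2 CPM against 90.7 to 192 CPM. The share of all genes that separate the 2 lines in this way was not counted, so the separation is not shown to be a trait of the members. The lines also differ in tissue of origin and in the CRISPR system, which cannot be told apart from the line, so no test was made.

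In order of mean CPM, ALDH1A3 ran from CRISPRa e1 (1379) through CRISPRa control (262), CRISPRi e1 (10), SOX2 knockout (8.6), ARV-771 (4.08), CRISPRi control (3.45) and DMSO (2.78) to knockout control (2.33). The last 4 groups each overlapped with the next in this order, and the first 4 did not. ALDH1A1 ran from ARV-771 (105) through CRISPRi control (83.8), knockout control (82.7), DMSO (67.1), CRISPRi e1 (25.6) and SOX2 knockout (21) to CRISPRa control (1.03) and CRISPRa e1 (0.0634). Here the CRISPRi and knockout controls overlapped, as did CRISPRi e1 and SOX2 knockout, and the CRISPRa groups. The other members had 1 (ALDH3A1) to 4 (RARB and STRA6) such overlaps among their 7 pairs of neighbours.

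**Figure D1:**
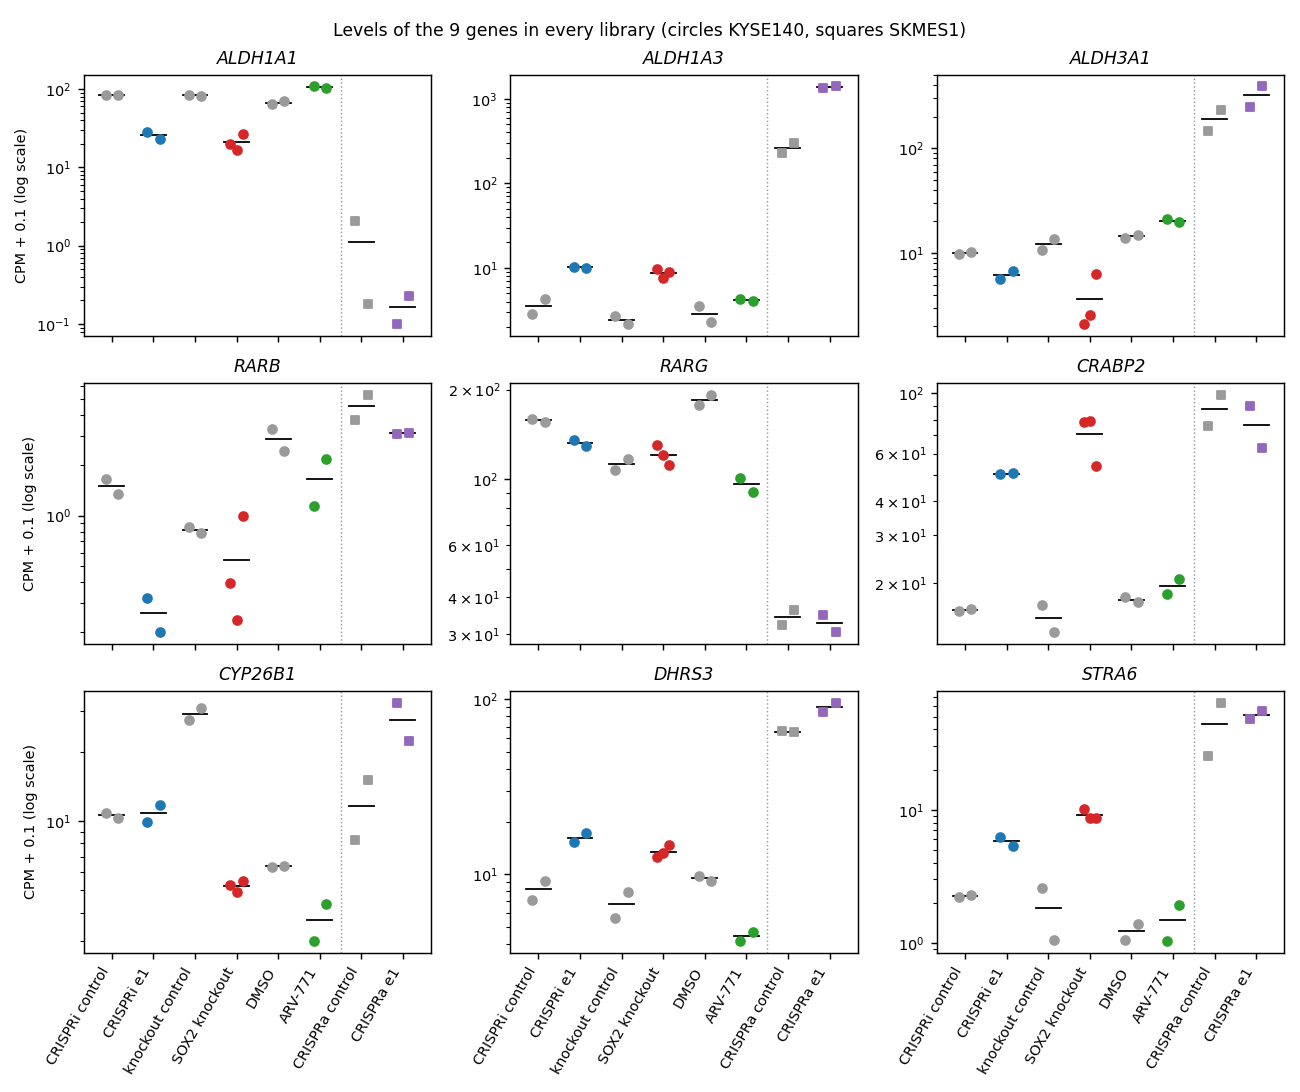
Level of each of the 9 genes in every library, as CPM + 0.1 on a log scale. Each symbol is 1 library (circles, KYSE140; squares, SKMES1), bars are group means, and control groups are grey. ALDH1A1 lies above 16 CPM in every KYSE140 library and below 2 CPM in every SKMES1 library, and ALDH1A3 has the opposite order.

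e1 repression asked which transcripts follow the enhancer in SOX2-high cells. The retinal dehydrogenases moved in opposite directions. ALDH1A1 stood at 84 and 83.5 CPM in the controls and at 28.1 and 23 CPM with e1 guides. Both e1 libraries were far below both controls, a log2 fold change of −1.68 (SE 0.09, edgeR adjusted p = 8.8e-10, n = 2 and 2). ALDH1A3 stood at 2.75 and 4.15 CPM in the controls and at 10.1 and 9.92 CPM with e1 guides (log2 fold change 1.57, SE 0.24, adjusted p = 5.7e-05), again without overlap. Its counts were 30 and 47 against 92 and 99, so it stayed a minor transcript beside ALDH1A1. In these bulk libraries, fewer cells with a transcript and less of it per cell cannot be told apart.

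The transcripts of CRABP2, DHRS3 and STRA6 rose with e1 guides. CRABP2 stood at 15.7 and 16 CPM in the controls and at 50.2 and 51 CPM with e1 guides (log2 fold change 1.71, SE 0.10, adjusted p = 1.7e-09). DHRS3 went from 7.05 and 9.09 CPM to 15.1 and 17.1 CPM (1.04, SE 0.17, adjusted p = 0.00013). STRA6 went from 2.1 and 2.21 CPM to 6.17 and 5.21 CPM (1.43, SE 0.30, adjusted p = 0.00116). For each of the 3 genes every e1 library was above every control library.

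RARB, ALDH3A1 and RARG were lower with e1 guides, RARG by less than the minimum fold. For RARB the controls gave 17 and 14 counts and the e1 guides 2 and 1, a ratio of 0.113 (95% counting interval 0.0221 to 0.362). It passed the filter on low counts only through its controls, so it is given as counts, with no p. ALDH3A1 fell from 9.61 and 10.1 CPM to 5.51 and 6.61 CPM (log2 fold change −0.66, SE 0.20, adjusted p = 0.0127). This call rested on single libraries, since it was lost without CRISPRi control 2 (adjusted p = 0.0699) or without e1 guide 1 (adjusted p = 0.0733), and with DESeq2 (adjusted p = 0.103). RARG was lower by less than the 1.5-fold minimum (158 ± 2.52 to 132 ± 4.75 CPM, SD, n = 2 each), and CYP26B1, which breaks down retinoic acid, stood at 10.5 ± 0.397 and 10.7 ± 1.29 CPM (adjusted p = 0.767), with overlapping libraries.

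Leaving RARB aside, 6 of the other 8 members passed the test on e1 repression, 4 up and 2 down, ALDH3A1 being the call that single libraries decided. Of all 13792 genes tested, 20% passed, 9.3% up and 10.7% down. On TPM with limma the rise of ALDH1A3 was smaller and not called (log2 difference 0.70, adjusted p = 0.116), nor was that of STRA6 (0.94, adjusted p = 0.0514) or the fall of ALDH3A1 (−0.56, adjusted p = 0.055). The effective length that RSEM estimated for ALDH1A3, by which TPM is divided, varied 3.01-fold between libraries. Other changes accompanied these values, with VIM at 114 to 122 TPM in the controls and 1082 to 1156 TPM with e1 guides and the other 3 mesenchymal markers together at 79.5 to 81.4 and 42.1 to 46.4 TPM, the summed TPM of 6 squamous markers at 6142 to 6159 and 9501 to 9543 (TP63 among them at 153 to 157 and 94.6 to 98), and CD68 alone at 0.84 to 1.08 and 24.4 to 25.8 TPM. Their part in the retinoid genes' values was not tested.

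The knockout asked for the effect of SOX2 itself, with control libraries separate from those of e1 repression. ALDH1A1 stood at 84.1 and 81.3 CPM in the controls and at 19.6, 16.4 and 26.9 CPM with SOX2 guides 2, 3 and 4 (log2 fold change −1.77, SE 0.14, adjusted p = 6.9e-07, n = 3 and 2). ALDH1A3 stood at 2.59 and 2.07 CPM in the controls and at 9.57, 7.43 and 8.81 CPM in the knockouts (2.08, SE 0.25, adjusted p = 2.7e-05). No knockout library overlapped a control for either gene. ALDH3A1 went from 10.7 and 13.5 CPM to 2, 2.48 and 6.21 CPM (−1.57, SE 0.36, adjusted p = 0.00285).

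CRABP2, STRA6 and DHRS3 rose here too. CRABP2 stood at 16.5 and 13.1 CPM in the controls and at 78.1, 79.2 and 54.1 CPM in the knockouts (log2 fold change 2.44, SE 0.19, adjusted p = 4.9e-07). STRA6 went from 2.49 and 0.964 CPM to 10.1, 8.53 and 8.51 CPM (2.53, SE 0.32). Its controls held 23 and 7 counts, and it passed the filter only through the knockouts, so no p is given. DHRS3 went from 5.51 and 7.85 CPM to 12.5, 13.1 and 14.5 CPM (1.21, SE 0.19, adjusted p = 0.00021). All knockout libraries were above both controls for these genes.

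CYP26B1 fell from 27.3 and 31 CPM to 5.19, 4.82 and 5.41 CPM (log2 fold change −2.29, SE 0.15, adjusted p = 1.3e-07). RARG went from 112 ± 7.16 CPM (SD, n = 2) to 120 ± 9.6 CPM (SD, n = 3), below the minimum fold. RARB, with 7 and 5 counts in the controls and 4, 1 and 9 in the knockouts, was too low to be tested. Of 8 members tested, 7 passed, 4 up and 3 down (STRA6 counted), where 29.7% of 13978 genes passed (16.3% up and 13.5% down). Over all genes that balance turned with the scaling, from 2275 up and 1882 down by TMM to 1703 up and 2999 down by library size and 1477 up and 2321 down with limma on log2(TPM + 1), while the members' count was 4 up and 3 down under all of these.

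Guide 4 left the most SOX2 transcript, with a log2 ratio of CPM to the control mean of −0.93 against −1.97 and −1.72 for guides 2 and 3. For ALDH3A1 it also lay nearest to the controls, at −0.91 against −2.33 and −2.08. The same order held for CRABP2, at 1.83 against 2.36 and 2.38, and for ALDH1A1, at −1.60 against −2.05 and −2.30. For ALDH1A3 it did not, at 1.72 between 1.83 and 1.49, nor for DHRS3, where guide 4 had the largest ratio, 1.06. Markers moved with the knockout as well, VIM from 237 to 267 TPM to 1152 to 1280 TPM, the other 3 mesenchymal markers together from 77.6 to 81.4 TPM to 16.4 to 24.5 TPM, the squamous sum from 7065 to 7078 TPM to 22712 to 26572 TPM (TP63 among them from 167 to 182 TPM to 56.9 to 78.5 TPM), and CD68 from 3.24 to 3.93 TPM to 53.8 to 70.2 TPM. Their part was not tested.

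**Figure D2:**
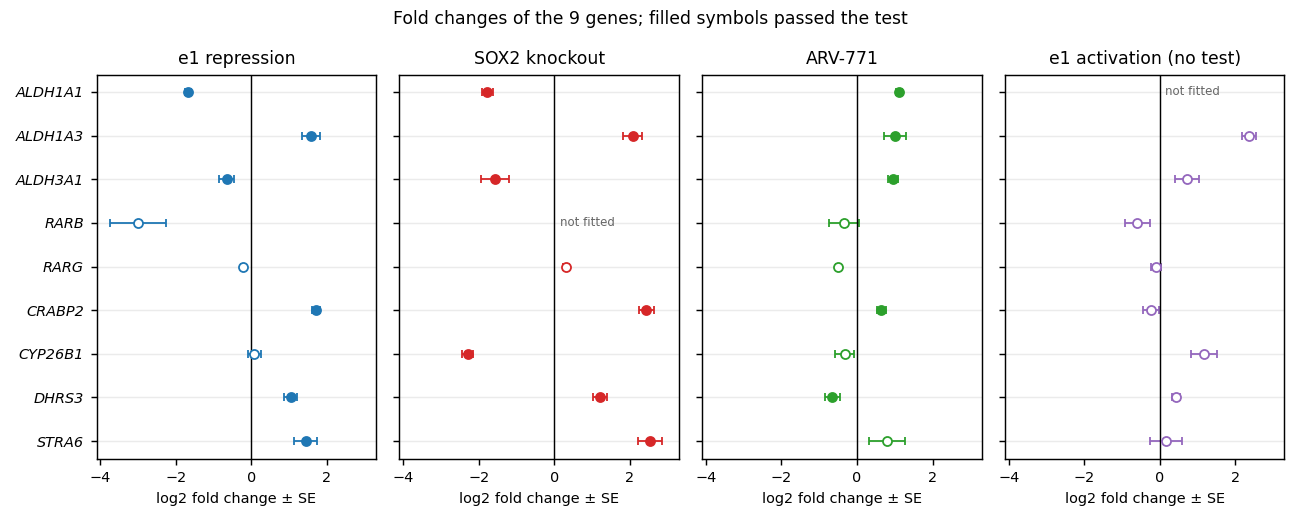
Log2 fold change (x axis, group over its control after TMM scaling, with the edgeR standard error) of the 9 genes in the 4 comparisons. Filled symbols passed the test, open ones did not, and no test is given for the e1 activation values or for RARB on e1 repression (open). STRA6 on SOX2 knockout (filled) passed the filter on low counts only through the knockouts. ALDH1A1 lies to the left and ALDH1A3 to the right of 0 in both e1 repression and SOX2 knockout.

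The 2 perturbations were compared directly by the difference of their effects over the 9 libraries of both experiments. Called in both, with the same sign, were 6 members (ALDH1A1, ALDH1A3, ALDH3A1, CRABP2, DHRS3 and STRA6) of 8 tested in both, where 12.1% of 13424 genes were. STRA6 is among them although it passed the filter of the knockout comparison only through the knockouts. CYP26B1 alone had a difference past both thresholds, 2.38 log2 units (SE 0.22, adjusted p = 4.27e-06), among 16.6% of 14455 genes. The difference came with unequal controls. The knockout controls held CYP26B1 at 29.2 ± 2.58 CPM, the CRISPRi controls at 10.5 ± 0.397 CPM and the DMSO libraries at 6.25 ± 0.0852 CPM (SD, n = 2 each).

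For RARG the difference was −0.50 (SE 0.12, adjusted p = 0.00607), under the minimum fold, and its controls differed too, at 158 ± 2.52 CPM for CRISPRi and 112 ± 7.16 CPM for the knockout. CRABP2 (−0.70, SE 0.25, adjusted p = 0.0513) and ALDH3A1 (0.93, SE 0.47, adjusted p = 0.161) did not pass, but both did without guide 4 (−0.87, adjusted p = 0.000261, and 1.60, adjusted p = 0.000905). STRA6 (−1.08, SE 0.46, adjusted p = 0.0943) passed without the AAVS1 control (−1.97, adjusted p = 0.0177). For ALDH1A1 the difference was 0.11 (SE 0.20), for ALDH1A3 −0.49 (SE 0.36) and for DHRS3 −0.16 (SE 0.26), none past the test. RARB (−2.52, SE 1.14) passed the filter on low counts only through the CRISPRi controls, so no test is given for it.

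**Figure D3:**
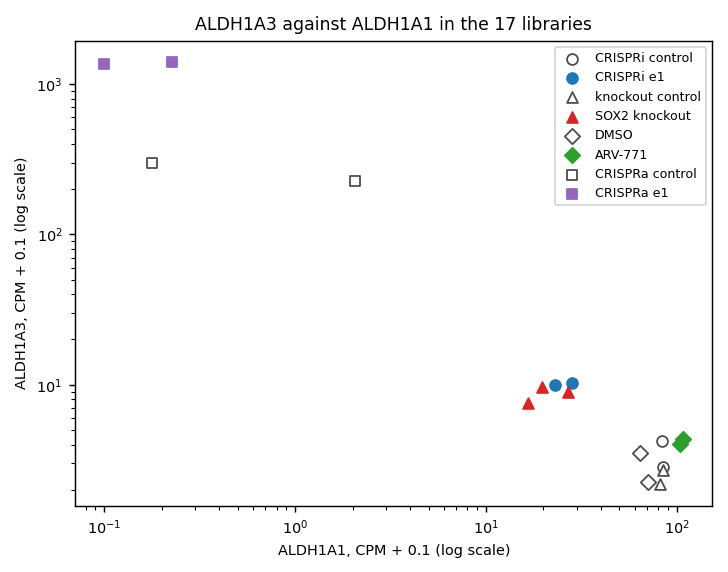
ALDH1A3 against ALDH1A1 in the 17 libraries, both as CPM + 0.1 on log scales, with 1 symbol per library. The e1 repression and SOX2 knockout libraries (filled blue and red) lie to the upper left of the other KYSE140 libraries, and the SKMES1 libraries at the far upper left, where e1 activation raises ALDH1A3 from 262 to 1379 CPM.

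ARV-771 asked for the early response to loss of BET proteins, and its values depended on the scaling. Total RNA output per cell was not measured. After TMM scaling 52.9% of 13500 genes passed (21.2% up and 31.7% down). Without TMM factors the median shift, over genes averaging 50 counts or more, was −0.45 log2 units, and with scaling to mitochondrially encoded genes it was −1.07. The log2 values below are TMM-scaled and the CPM values are not.

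ALDH1A1 stood at 63.6 and 70.5 CPM in DMSO and at 108 and 103 CPM with ARV-771 (log2 fold change 1.11, SE 0.07, adjusted p = 4.5e-13). This was the opposite direction to that after SOX2 knockout, while SOX2 was lower in both. With mitochondrial scaling the value was 0.04 (adjusted p = 0.808). ALDH1A3 counts were 39 and 25 in DMSO, and 45 and 53 with ARV-771 (1.01, SE 0.30, adjusted p = 0.00379), and ALDH3A1 went from 13.7 and 14.9 to 20.9 and 19.5 CPM (0.96, SE 0.13, adjusted p = 2.2e-07). With mitochondrial scaling these were −0.08 and −0.11. The ALDH1A3 call was also lost without DMSO library B (0.72, adjusted p = 0.0737). CRABP2 went from 17.7 and 16.9 to 18.2 and 20.7 CPM (0.64, SE 0.12, adjusted p = 4.8e-05) but was −0.44 with mitochondrial scaling, and it fell under the minimum fold without ARV-771 library B (0.55).

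DHRS3 was lower under every scaling. It stood at 9.67 and 9.07 CPM in DMSO and at 4.06 and 4.57 CPM with ARV-771, a log2 fold change of −0.65 (SE 0.21, adjusted p = 0.00628) that ranged from −1.73 to −0.57 over the alternatives. The call was lost with DESeq2 (adjusted p = 0.0974) and without ARV-771 library A, where it fell under the minimum fold (−0.58). RARG went from 178 and 192 to 101 and 90.7 CPM, with −0.50 (SE 0.06, adjusted p = 1.9e-07) by TMM, under the minimum fold, and −0.96 by library size, which passed. RARB (−0.34, SE 0.39), CYP26B1 (−0.32, SE 0.25) and STRA6 (0.79, SE 0.47) were not called by TMM, and STRA6 overlapped. With mitochondrial scaling RARB (−1.42, adjusted p = 0.000733) and CYP26B1 (−1.39, adjusted p = 1.41e-06) were called, as was CYP26B1 by library size (−0.77, adjusted p = 0.00901). Thus 5 of 9 members passed by TMM, 4 up and 1 down, near the 52.9% of all genes. The split was 1 up and 3 down by library size, 0 up and 4 down with mitochondrial scaling and 0 up and 2 down with limma on TPM.

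**Figure D4:**
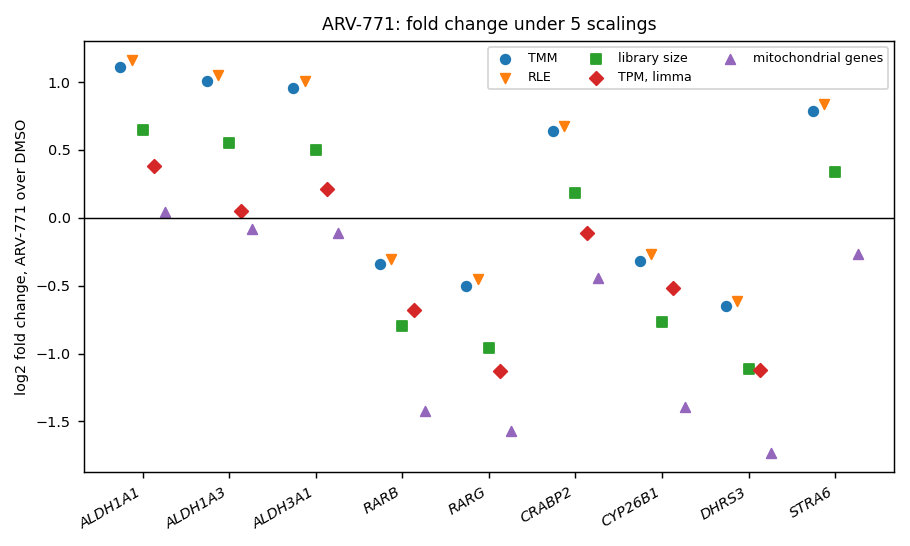
Log2 fold change of the 9 genes with ARV-771 over DMSO under 5 scalings (y axis; symbols as in the legend; RARG has the TMM value −0.50 and the mitochondrial value −1.57). ALDH1A3, ALDH3A1, CRABP2 and STRA6 lie on both sides of 0 depending on the scaling. DHRS3, RARG, RARB and CYP26B1 lie below 0 under all 5, and ALDH1A1 lies above 0 under all 5.

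e1 activation in SKMES1 is the contrast from which the set was chosen, so its values are a description. The controls gave 2303 and 3778 counts of ALDH1A3 (227 and 297 CPM), and the e1 guides 12202 and 22161 (1354 and 1404 CPM), a log2 fold change of 2.36 (SE 0.18). Both e1 libraries were above both controls. The set was chosen on this rise. Neither this separation nor the share of genes called in that contrast (0.188% of 14859) is thus support for it. ALDH1A3 was thus higher on e1 activation, where SOX2 was higher, and also on e1 repression and SOX2 knockout in KYSE140, where SOX2 was lower.

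Among the other enzymes, CYP26B1 stood at 8.18 and 15 CPM in the controls and at 32.5 and 22.1 CPM with e1 guides (log2 fold change 1.18, SE 0.34). DHRS3 went from 65.9 and 64.9 to 84.9 and 95.2 CPM (0.43, SE 0.10), and ALDH3A1 from 146 and 232 to 249 and 390 CPM (0.72, SE 0.31). The libraries did not overlap for these 3 genes. With 2 libraries against 2 this can happen without an effect, and the share of all genes that did so was not counted. For ALDH3A1 the e1 libraries lay about as far from each other as the group means did. ALDH1A1 was near the limit of counting, with 20 and 1 counts in the controls and 0 and 2 with e1 guides. Its ratio of 0.0878 (95% counting interval 0.00998 to 0.359) rested on control library 1.

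For the other members the values were −0.59 (SE 0.32) for RARB, −0.10 (SE 0.14) for RARG, −0.23 (SE 0.21) for CRABP2 and 0.17 (SE 0.42) for STRA6, and libraries overlapped for all but RARB. Without control library 2, which stood apart in KRT14, ALDH3A1 was at 1.13, CYP26B1 at 1.72, STRA6 at 1.02 and ALDH1A3 at 2.60. Without control library 1 they were lower, at 0.41, 0.79, −0.35 and 2.16 in the same order.

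A list of 65 other genes of retinoid metabolism, receptors and aldehyde dehydrogenases set the members beside the rest of the pathway. On e1 repression 8 of 35 tested genes passed, 3 up and 5 down, near the 20% of all genes, with a median log2 fold change of −0.27 against −0.00 over all genes. RARA, the most widely expressed RAR, went from 16.6 and 15.7 to 26.2 and 30.2 CPM (0.85, SE 0.12, adjusted p = 4e-05), RDH10, a retinol dehydrogenase, from 14.9 to 23.2 CPM (group means; 0.67, SE 0.12, adjusted p = 0.00036), and FABP5, a carrier of fatty acids and retinoic acid, from 74.1 to 114 CPM (0.66, SE 0.07, adjusted p = 9.2e-07). The mitochondrial enzymes ALDH5A1, from 32.8 and 32.4 to 9.65 and 9.44 CPM (−1.73, SE 0.13, adjusted p = 2e-08), and ALDH6A1 (−0.90, SE 0.11, adjusted p = 5.7e-06) fell. RARRES3, a retinoid-inducible tumor suppressor, went from 11 and 13 counts to 4 and 1, a ratio of 0.243 (95% counting interval 0.0725 to 0.65), and passed the filter only through the controls.

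On SOX2 knockout 11 of 36 genes passed, near the 29.7% of all genes, 9 up and 2 down by TMM, with a median of 0.05 against −0.01. The split was 8 up and 6 down by library size and 7 up and 4 down with limma on TPM. ALDH3B2, an aldehyde dehydrogenase of the lipid aldehyde family, went from 0.33 and 0.964 CPM to 39.1, 36.1 and 19.5 CPM (log2 fold change 5.87, SE 0.47). Its controls held 3 and 7 counts, and it passed the filter only through the knockouts, so no p is given. RDH12, a retinal reductase, was at 2 and 1 reads in its control libraries and 46 summed over the knockouts, a ratio of 8.24 (95% counting interval 2.65 to 41.4), and passed the filter only through the knockouts. In both perturbations ALDH5A1 and ALDH6A1 fell, here by 2.18 and 0.90 on the log2 scale (SE 0.24 and 0.13, adjusted p = 1e-05 and 0.00011). Of the 38 list genes in the test of the difference, 6 differed between the effects, near the 16.6% of all genes.

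With ARV-771, 20 of 35 list genes passed by TMM, 10 up and 10 down, near the 52.9% of all genes, with a median of 0.33 against −0.04. On TPM with limma 13 of 34 passed, 0 up and 13 down, so the rises depended on the scaling. The receptor cofactor NRIP1 fell from 74.8 and 75.3 to 9.24 and 9.66 CPM (−2.52, SE 0.10, adjusted p = 1.2e-16), and RDH13 from 18 to 2.11 CPM (−2.65, SE 0.21, adjusted p = 3.2e-11). Of 9 receptors and cofactors tested 5 fell by TMM, where 31.7% of all genes fell. FABP5 (0.89, SE 0.06), DHRS4, a retinal reductase (0.88, SE 0.07), and RARRES3 (0.98, SE 0.39) were the rises named.

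On e1 activation 0 of 42 list genes passed the edgeR quasi-likelihood test, where 0.188% of 14859 genes did. An unadjusted p under 0.05 was found for 6 of the 42 and for 2109 of all 14859 genes. DESeq2 also called 0 of 42 (2.69% of all genes), and limma on log2(TPM + 1) 0 of 41 (0.0595% of all genes). The median was 0.04 against −0.00 over all genes.

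The genes whose pattern was most like that of ALDH1A3 over the 17 libraries were SPANXA2 and SPANXA1 (Pearson r = 0.991 each, on log2(TPM + 1)), AKR1C1 (0.987), TMEM200A (0.986) and EFEMP1 (0.986). SPANXA1 and SPANXA2 are near-identical copies whose reads RSEM had to share. All 5 were higher in every SKMES1 library than in any KYSE140 library, and the points share their line and library. Over the 13 KYSE140 libraries alone the leading genes were EVA1A (0.863), LDHA (0.853), AP2A1 (0.846), PSMD2 (0.845) and QDPR (0.829). Among the members, DHRS3 (0.723), CRABP2 (0.684) and STRA6 (0.647) correlated positively and ALDH1A1 (−0.681) and ALDH3A1 (−0.613) negatively with ALDH1A3 in these 13 libraries, a description over libraries that share controls and treatments.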

How the data were processed

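RNA of 17 libraries was poly-A selected and sequenced from directional libraries. The authors used Bowtie2 (hg19) for alignment and RSEM for GENCODE gene quantification, versions and strand setting not given in the sources used here. The authors deposited an expected count per gene, not normalized between libraries, and TPM, which RSEM corrects for effective length within a library. Deposited FPKM was not used. The members and lists were chosen with earlier results of these data known.

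Levels within a gene are CPM, and TPM was used to compare genes, because the effective length RSEM assigned to a gene varied between libraries. Rounded expected counts went into edgeR 4.0.16 (R 4.3.3; quasi-likelihood fit), with TMM scaling, filterByExpr (minimum count 10, total 15), within each experiment and over all genes. A call needed more than 1.5-fold and a p below 0.05 after Benjamini-Hochberg adjustment. The difference of e1 repression and SOX2 knockout effects was an interaction contrast over their 4 groups. DESeq2 1.42.0, limma 3.58.1 on TPM (pseudocount 1 or 0.1), omission of single libraries, a block for the replicate number, and other scalings, filters and thresholds were alternatives. The tests were checked on simulated data. Replicates are guide RNAs, or cultures A and B, so p-values measure the spread between these samples, which may be technical. Intervals and the limit of 3 counts cover counting error only. Named pathway genes were, per comparison, up to 3 risen and 3 fallen of largest fold change among those called whose TPM did not overlap. Some genes this rule or the lists hold are not reported here. Promoters came from a RefSeq table (GRCh38.p14), which had no ALDH3A1 entry, and gene positions from GENCODE 44 on GRCh37. The Bowtie2, RSEM and hg19 names are also in the submitters' processing notes.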

Additional observations from a re-analysis of the deposited data

Results flagged for a closer look

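For 2 genes the effects of e1 repression and of SOX2 knockout differed by the interaction test (edgeR, adjusted over all genes). For CYP26B1 the difference was 2.38 log2 units (adjusted p = 4.27e-06). e1 guides left it at 10.7 CPM against 10.5 CPM in their controls, and all 3 SOX2 guides lay at 4.82 to 5.41 CPM against 27.3 and 31 CPM. For RARG the difference was −0.50 (adjusted p = 0.00607), below the 1.5-fold minimum, with a log2 fold change of −0.22 on e1 repression and 0.31 on knockout. No group had the 4 samples that a check for outlying samples needs.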

How the results depend on the processing

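Over the alternatives, 675 of 760 log2 values of the members and SOX2 kept their direction and their side of the threshold, or moved by less than their SE where no test was made. The 760 include alternatives that changed only the fold threshold. These kept the main log2 value by construction, and only its side of the threshold could change. ALDH1A1 and CRABP2 kept their calls on e1 repression and SOX2 knockout under all 16 alternatives each. Limma on TPM called fewer members (RARB counted), with 3 on e1 repression at either pseudocount (2 without a filter) and 2 with ARV-771 in all 3 versions. On the list of other pathway genes it called 13 with ARV-771 at either pseudocount (12 without a filter) and, without a filter, 3 on e1 repression. Requiring a fold change over 2 left 2 list genes on e1 repression and, with ARV-771, 2 members and 9 list genes. With no minimum fold 20 list genes were called on e1 repression and 17 on SOX2 knockout. On e1 activation, 1 list gene was called with all 17 libraries in one fit and 3 with no filter on low counts. The cause of these shifts was not tested, beyond the threshold itself where only that was changed.

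Members whose e1 repression effect differed from the SOX2 knockout effect numbered 2 with DESeq2, with RLE factors, with a mean of at least 50 counts and with no minimum fold, and 3 with no filter on low counts, in place of 1. Leaving out single libraries gave 1 to 3, the 3 without SOX2 guide 4.

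With ARV-771, scaling to mitochondrially encoded genes reversed ALDH1A3 (−0.08), ALDH3A1 (−0.11), CRABP2 (−0.44) and STRA6 (−0.27), and limma on TPM reversed CRABP2 (−0.11 in its 3 versions). Leaving out single libraries moved values near 0 across it, with ranges of −0.06 to 0.19 for CYP26B1 on e1 repression, −0.94 to 0.03 for RARB with ARV-771, −0.49 to 0.00 for CRABP2 and −0.35 to 1.02 for STRA6 on e1 activation. The differences between effects ranged from −0.03 to 0.30 for ALDH1A1 and from −0.41 to 0.09 for DHRS3.

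A replicate block, pairing guide numbers on e1 repression and culture letters with ARV-771, called 7 and 5 members and 8 and 19 list genes, and changed no call of a member. Deviations of same-numbered libraries correlated at 0.02 and −0.03, so the numbers did not pair them. Across all genes, e1 activation was the least stable, with 28 genes called by edgeR, 400 by DESeq2, 1116 without a filter and 1 to 764 when single libraries were left out. Fold thresholds moved the other counts. A fold over 2 called 1526 in place of 2764 genes on e1 repression, 2339 in place of 4157 on SOX2 knockout, 3809 in place of 7136 with ARV-771 and 1021 in place of 2397 for the difference of effects, and no minimum called 6103, 7123, 10154 and 4010. Limma on TPM without a filter called 1331 on e1 repression and 1537 for the difference. Of the 5 genes most like ALDH1A3, 2 remained at a pseudocount of 0.1. Depth limited RARB in KYSE140 and ALDH1A1 in SKMES1, where libraries held as few as 1 and 0 counts.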
